A study of Mus musculus with 6 samples.

Results

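The carriers of solute carrier family 25 (SLC25) were examined in gastrocnemius muscle, a calf muscle, of mice with and without the kinase TAK1. Members were all genes with a numbered Slc25a symbol and a probe set assigned to that gene alone in the platform annotation. There were 46 such genes among 22180 genes measured, each represented by 1 probe set. RNA of 6 mice was hybridised to 1 Affymetrix array each. The control group was 3 mice labelled Floxed TAK1, with the gene intact. The other group was 3 littermates with a skeletal muscle-specific TAK1 knockout, in which the gene had been deleted for 3 weeks. Both groups carry the floxed gene, while the labels name neither the promoter that drives the deletion nor the age of the mice.

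SLC25 proteins are nuclear-encoded carriers, most of which sit in the inner mitochondrial membrane and move a metabolite in exchange for, or together with, another. They supply ADP and phosphate to ATP synthase, return ATP to the cytosol, carry reducing equivalents through the malate-aspartate shuttle, and bring acylcarnitines, amino acids, iron and coenzymes into the matrix. Skeletal muscle depends on them because contraction draws on ATP made in mitochondria.

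Whole-array values set the frame for the family. All values are log2 probe set levels, so a difference of 1 is a doubling. Levels of different probe sets are not compared, except with a level of receptor genes, given below, as a rough guide to signal. Median levels of the arrays ran from 5.78 to 5.84. In limma, 21 genes passed an adjusted p of 0.05. Map3k7, which encodes TAK1, was at 8.47, 8.32 and 8.42 in controls 1 to 3 and at 8.20, 8.28 and 8.17 in knockouts 1 to 3. Its groups did not overlap, but its log2 fold change of −0.19 did not pass (limma, adjusted p = 0.685), so the label rests on GEO's description. The muscle label held, with all 12 fast fibre markers and all 10 slow fibre markers above the level of receptor genes that muscle is not known to use (5.85, the 95th percentile of 1394 olfactory and vomeronasal receptor genes). Of the fast fibre markers 10 of 12 were lower in knockout muscle, against 50.1% of all genes. In 4 of them the groups did not overlap, against 6.65% of all genes lower without overlap, and 0 of the 12 passed. The mean log2 level of the 12 ran from 13.44 to 13.56 in controls and from 13.38 to 13.41 in knockouts. Slow fibre markers had 7 of 10 higher, or 4 without control 3, and 0 passed. Their mean ran from 8.90 to 9.87 in controls and from 9.09 to 9.55 in knockouts. Among markers of other cells, tendon markers differed most, with 7 of 7 lower in knockout muscle and 0 passing. Knockout 3 was the lowest array for 6 of the 7. Their median log2 fold change of −0.68 was −0.38 without knockout 3, with 0 of the 7 higher. Their mean log2 level ran from 7.49 to 8.01 in controls and from 6.61 to 7.57 in knockouts. The part of fibre types and of tendon in the values below was not tested. In whole muscle, fewer cells of a type and less RNA per cell cannot be told apart.

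No SLC25 carrier passed the test over all genes. In limma, 0 of 46 members had an adjusted p under 0.05, against 0.0947% of all genes, and 3 had an unadjusted p under 0.05, against 8.04% of all genes. Log2 fold changes ran from −0.39 to 0.43 among the 36 members whose mean lay above the receptor-gene level, and measured differences of the 10 members below it from −0.44 to 0.34. The smallest adjusted p among them was 0.441. In knockout muscle 20 members were higher and 26 lower, where 49.9% of all genes were higher and 50.1% lower. The members' median log2 fold change was −0.032, beside −0.00032 over all genes. This lean to lower values depended on single arrays, since 23 of 46 members were higher without control 3 (median 0.0019) and also without knockout 3 (median −0.0022). Groups did not overlap in 1 member, against 13.4% of all genes, and that member was lower in knockout muscle, as were 6.65% of all genes.

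The intervals show how large a difference each array comparison could have missed. For 38 of the 46 members the whole 95% confidence interval lay within a 1.5-fold difference in either direction, as it did for 86.1% of all genes. The other 8 were Slc25a1, Slc25a2, Slc25a13, Slc25a22, Slc25a34, Slc25a36, Slc25a41 and Slc25a44. A 1.5-fold difference was not excluded for them. Of the members, 36 lay above the receptor-gene level, and 31 of the 36 had an interval within 1.5-fold. So had 11154 of all 12601 genes above that level. The remaining 10 members lay below the receptor-gene level, where the array summary compresses differences. There an interval within 1.5-fold does not exclude such a difference in the transcript. For these 10 (Slc25a2, Slc25a13, Slc25a14, Slc25a18, Slc25a21, Slc25a31, Slc25a41, Slc25a43, Slc25a53 and Slc25a54) a log2 difference is given as measured and without a linear fold.

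**Figure D1:**
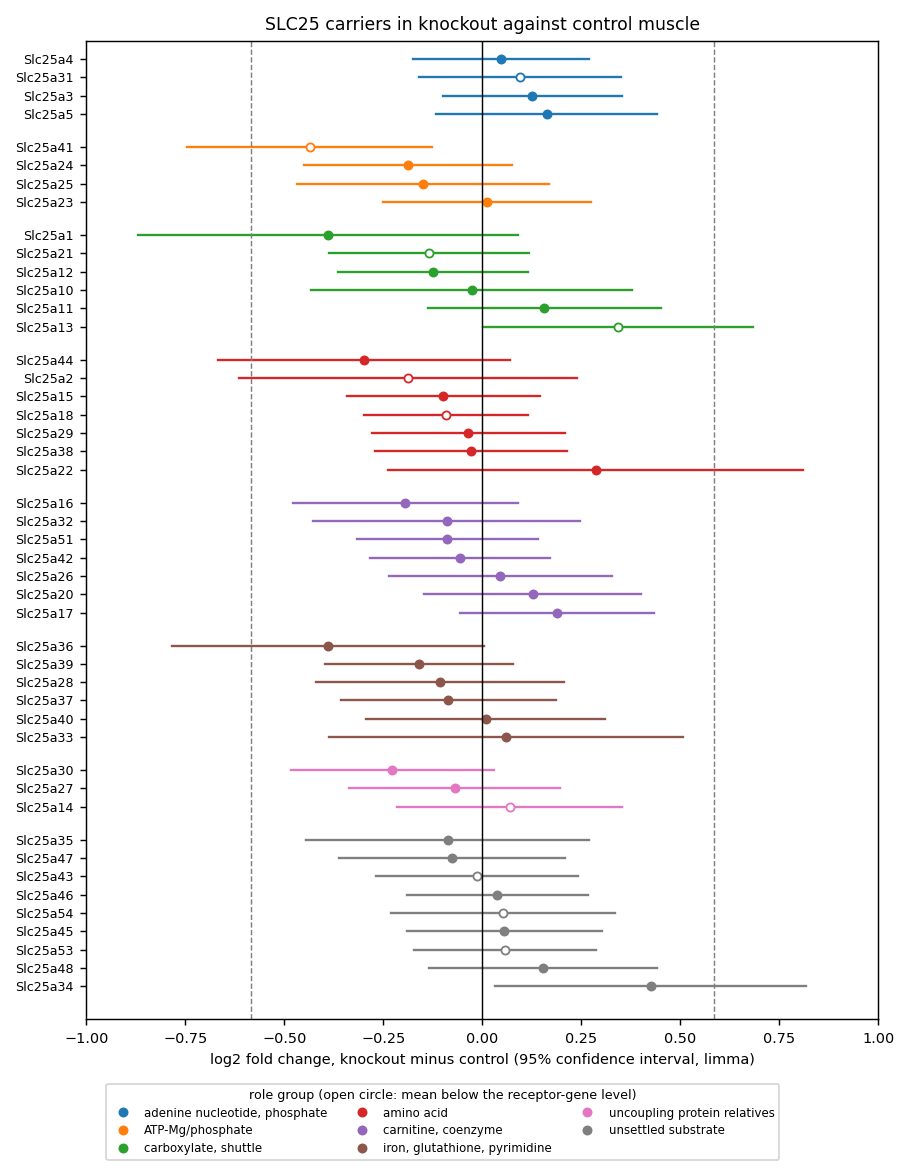
Log2 fold change of each of the 46 SLC25 members, knockout minus control (horizontal axis), with its 95% confidence interval from limma, grouped by role (colours); open circles mark members whose mean lies below the receptor-gene level and dashed lines mark 1.5-fold. Filled points run from −0.39 to 0.43, and 38 intervals lie between the dashed lines.

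The exchange of ATP, ADP and phosphate is the family's central task in muscle. All 4 members of this group were higher in knockout muscle, 0 of 4 passed, and the median log2 fold change was 0.11. Slc25a4 encodes the ADP/ATP carrier ANT1, the main form of heart and skeletal muscle. Control levels were 12.61, 12.70 and 12.83, and knockout levels were 12.78, 12.78 and 12.73. The knockout values lay inside the control range, with a log2 fold change of 0.047 (95% confidence interval −0.18 to 0.27, SE 0.098; limma, adjusted p = 0.951). Without control 1 the difference was −0.0042. Slc25a5 encodes ANT2, the form of many proliferating and non-muscle cells. It was at 9.34, 9.72 and 9.49 in controls and 9.60, 9.64 and 9.79 in knockouts. Its groups overlapped, and the log2 fold change was 0.16 (−0.12 to 0.44; limma, adjusted p = 0.813), or 0.074 without control 1. Slc25a3 encodes the phosphate carrier, which also brings in copper. It was at 9.73, 9.96 and 9.78 in controls and 9.93, 9.98 and 9.95 in knockouts. Control 2 lay among the knockouts and the other controls below them (log2 fold change 0.13, −0.10 to 0.35; limma, adjusted p = 0.826), and the value was 0.080 without control 1. Slc25a31, an ADP/ATP carrier known from the testis, lay below the receptor-gene level at 4.44 to 4.81. The ADP/ATP carriers are close relatives in sequence, and whether their probes respond to each other's transcripts was not tested.

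The ATP-Mg/phosphate carriers set the size of the matrix adenine nucleotide pool. Of 4 members 3 were lower, 0 passed, and the median log2 fold change was −0.17. Slc25a41 encodes the short form, which lacks the calcium-binding domain of its relatives. It was at 5.44, 5.55 and 5.13 in controls and 4.84, 4.87 and 5.11 in knockouts. It was the only member whose groups did not overlap, with control 3 and knockout 3 just 0.021 apart, and every value lay below the receptor-gene level. Its measured log2 difference of −0.44 (−0.75 to −0.13, SE 0.14) did not pass (limma, adjusted p = 0.441). Slc25a25, a calcium-sensing form of muscle, was at 9.54, 9.35 and 9.13 in controls and 9.02, 9.39 and 9.16 in knockouts. Knockout 2 lay above controls 2 and 3, and the log2 fold change was −0.15 (−0.47 to 0.17; limma, adjusted p = 0.855). This value was −0.051 without control 1, which was the highest of the 6 arrays. Slc25a24 and Slc25a23, the other calcium-sensing forms, had log2 fold changes of −0.19 and 0.012. In the RefSeq gene table of GRCm38.p6, Slc25a23 and Slc25a41 are neighbours with 0 protein-coding genes between them.

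The carboxylate and malate-aspartate shuttle carriers link the cytosol to the citric acid cycle. Of 6 members 2 were higher and 4 lower, 0 passed, and the median log2 fold change was −0.076, or 0.050 without control 3. Slc25a12 (aralar) and Slc25a13 (citrin) encode the aspartate/glutamate exchangers, and Slc25a11 the oxoglutarate/malate exchanger of the same shuttle. Slc25a12 was at 12.19, 12.22 and 12.30 in controls and 12.26, 11.99 and 12.07 in knockouts. Knockouts 2 and 3 lay below all controls and knockout 1 among them (log2 fold change −0.12, −0.36 to 0.11; limma, adjusted p = 0.839). Slc25a11 was at 11.06, 11.41 and 11.42 in controls and 11.60, 11.38 and 11.38 in knockouts. Only control 1 stood clearly below the knockouts, and the log2 fold change of 0.16 (−0.14 to 0.45; limma, adjusted p = 0.834) was 0.039 without it. Slc25a13, better known from liver, was at 5.29, 5.48 and 5.38 in controls and 5.94, 5.84 and 5.40 in knockouts. Knockout 3 lay among the controls, and the means of both groups lay below the receptor-gene level (measured log2 difference 0.34, SE 0.15; limma, adjusted p = 0.619).

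Slc25a1 encodes the citrate carrier, which supplies cytosolic acetyl-CoA for fat synthesis, and it was named after its values were seen. It was at 7.23, 7.82 and 7.97 in controls and 7.36, 6.96 and 7.53 in knockouts. Control 1 lay below knockouts 1 and 3, while the other controls lay above all knockouts. The log2 fold change was −0.39 (−0.87 to 0.089; limma, adjusted p = 0.714), and it was −0.61 without control 1 and −0.23 without knockout 2. Acly, the cytosolic enzyme that cleaves the exported citrate, was also named after its values were seen. Its list of shuttle and phosphagen enzymes had 8 of 14 genes higher. Acly was at 7.58, 8.36 and 8.20 in controls and 7.54, 7.55 and 7.99 in knockouts (log2 fold change −0.35; limma, adjusted p = 0.750). It too was low in control 1. Adipocyte markers had a mean log2 level of 7.26 to 7.80 in controls and 7.14 to 7.81 in knockouts, with 6 of 7 lower in knockout muscle. This count depended on single arrays, since 4 of 7 were higher without knockout 2 and 0 without control 1. Their median log2 fold change of −0.089 was then 0.016 and −0.23. The part of adipocytes in these values was not tested. Slc25a10, the dicarboxylate carrier, had a log2 fold change of −0.026, and Slc25a21, the oxoadipate carrier, lay below the receptor-gene level.

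**Figure D2:**
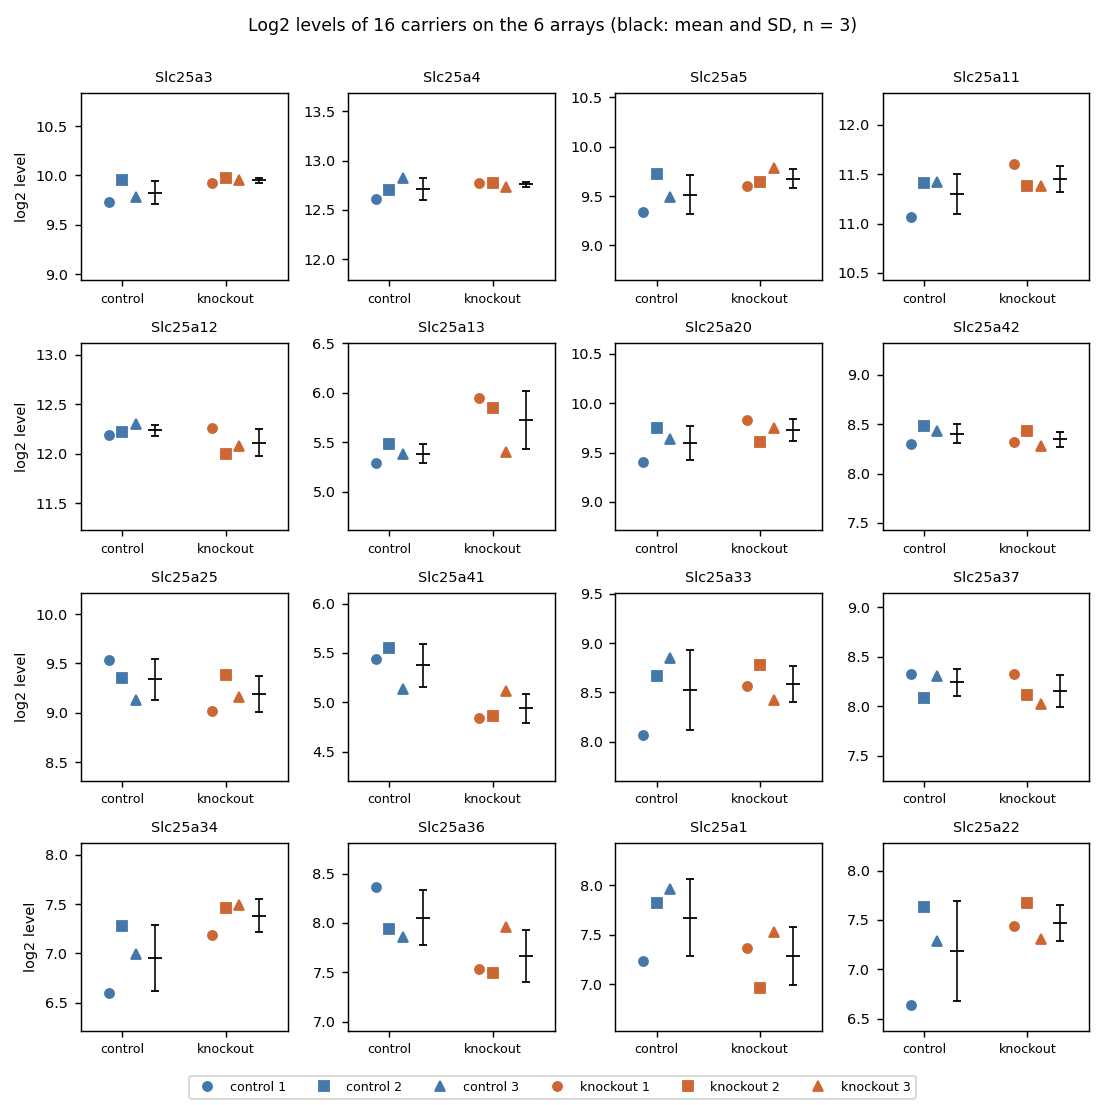
Log2 levels of 16 carriers on the 6 arrays (vertical axes, each spanning 1.9 log2 units); blue symbols are controls 1 to 3, orange symbols knockouts 1 to 3, and black marks give mean and SD (n = 3). The groups overlap in every panel except Slc25a41, and control 1 (blue circle) lies apart from the other controls for Slc25a1, Slc25a11, Slc25a33, Slc25a34, Slc25a36 and Slc25a22.

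Of 7 amino acid carriers 6 were lower, with 0 passing and a median log2 fold change of −0.092. The exception was the glutamate carrier Slc25a22, named after its values were seen, at 6.64, 7.64 and 7.28 in controls and 7.44, 7.67 and 7.31 in knockouts. Control 1 lay far below the other 5 arrays, and the log2 fold change of 0.29 (−0.24 to 0.81) was 0.013 without it. Slc25a44, a carrier of branched-chain amino acids, was at 8.33, 7.70 and 7.91 in controls and 7.73, 7.52 and 7.79 in knockouts, and was also named after its values were seen. Here control 1 was the highest array, and the log2 fold change of −0.30 (limma, adjusted p = 0.716) was −0.13 without it. The ornithine carriers Slc25a2 and Slc25a15, the glutamate carrier Slc25a18, the basic amino acid carrier Slc25a29 and the glycine carrier Slc25a38 lay between −0.19 and −0.029, with Slc25a2 and Slc25a18 below the receptor-gene level.

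Carriers of acylcarnitine and coenzymes had 3 of 7 members higher, 0 passing and a median log2 fold change of −0.056, which was −0.10 without control 1 and 0.067 without control 3. Slc25a20 encodes the carnitine/acylcarnitine exchanger, through which long-chain fatty acids reach beta-oxidation. It was at 9.41, 9.75 and 9.63 in controls and 9.83, 9.60 and 9.74 in knockouts. Control 1 was the lowest array and the rest overlapped (log2 fold change 0.13, −0.15 to 0.40; limma, adjusted p = 0.855), with 0.032 without control 1. Slc25a42, a coenzyme A carrier, was at 8.30, 8.48 and 8.43 in controls and 8.32, 8.43 and 8.28 in knockouts. These groups overlapped almost fully (log2 fold change −0.056, −0.28 to 0.17; limma, adjusted p = 0.943). The remaining members, among them the peroxisomal carrier Slc25a17, the S-adenosylmethionine carrier Slc25a26, the folate and flavin carrier Slc25a32 and the NAD carrier Slc25a51, ran from −0.19 to 0.19.

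Carriers of iron, glutathione and pyrimidine nucleotides had 2 of 6 members higher, 0 passing and a median log2 fold change of −0.097. Slc25a37 (mitoferrin 1) brings iron in for heme and iron-sulfur clusters. It was at 8.33, 8.09 and 8.30 in controls and 8.33, 8.11 and 8.02 in knockouts, which overlapped (log2 fold change −0.086, −0.36 to 0.19; limma, adjusted p = 0.920). Its relative Slc25a28 (mitoferrin 2) had a log2 fold change of −0.11. Slc25a33 and Slc25a36 encode the pyrimidine nucleotide carriers that feed mitochondrial RNA and DNA synthesis. Slc25a33 was at 8.07, 8.67 and 8.84 in controls and 8.56, 8.78 and 8.42 in knockouts. Control 1 lay below the other 5 arrays, and the log2 fold change of 0.061 (−0.39 to 0.51; limma, adjusted p = 0.971) turned to −0.17 without it. Slc25a36, named after its values were seen, was at 8.37, 7.94 and 7.86 in controls and 7.54, 7.49 and 7.96 in knockouts. In this gene control 1 was the highest array and knockout 3 lay among the controls (log2 fold change −0.39, SE 0.17; limma, adjusted p = 0.622), with −0.23 without control 1. The glutathione carriers Slc25a39 and Slc25a40 had log2 fold changes of −0.16 and 0.0084.

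The uncoupling protein relatives Slc25a14, Slc25a27 and Slc25a30 had log2 fold changes of 0.069, −0.069 and −0.23, with Slc25a14 below the receptor-gene level, and 0 of 3 passed. Their median was −0.069, or 0.030 without control 1. The last group holds 9 members whose substrates were taken as unsettled, of which 6 were higher and 0 passed, with a median of 0.053, or 0.0074 without control 1. Its widest difference, named after its values were seen, was in Slc25a34. That carrier was at 6.60, 7.28 and 6.99 in controls and 7.19, 7.47 and 7.49 in knockouts. Control 2 lay above knockout 1, and control 1 was the lowest array. The log2 fold change of 0.43 was the highest in the family (1.34-fold, 0.033 to 0.82) and did not pass (limma, adjusted p = 0.583). Without control 1 it was 0.25. The other 8 members, among them Slc25a46, an outer membrane protein of mitochondrial shape, ran from −0.088 to 0.15.

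Control 1 held the extreme value of many members. It was the lowest of the 6 arrays for 15 members and the highest for 12, together 58.7% of the family, while it was the lowest or highest for 37.5% of all genes. For the other 5 arrays the share of members ran from 19.6% to 34.8%. The 15 low members included Slc25a3, Slc25a4, Slc25a5, Slc25a11, Slc25a13, Slc25a17, Slc25a20, Slc25a22, Slc25a33 and Slc25a34. The 12 high members included the iron carriers Slc25a28 and Slc25a37, the glutathione carrier Slc25a39, Slc25a25, Slc25a36 and Slc25a44. Since control 1 is part of the control mean, 14 of the 15 low members were higher in knockout muscle and all 12 high members were lower. Without control 1 the split was 9 higher and 6 lower among the first and 3 higher and 9 lower among the second. Their medians then moved from 0.13 to 0.031 and from −0.14 to −0.045. In the whole family 16 members were then higher and 30 lower, with 0 called, and the median was −0.038. Slc25a1 had the widest difference in that fit (unadjusted p = 0.00836), and it did not pass over all genes (limma, smallest adjusted p of the members 0.499). Signs held in all 6 fits that left out 1 array for 30 of the 46 members. Within groups, the median SD of the members was 0.15 in controls and 0.13 in knockouts.

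**Figure D3:**
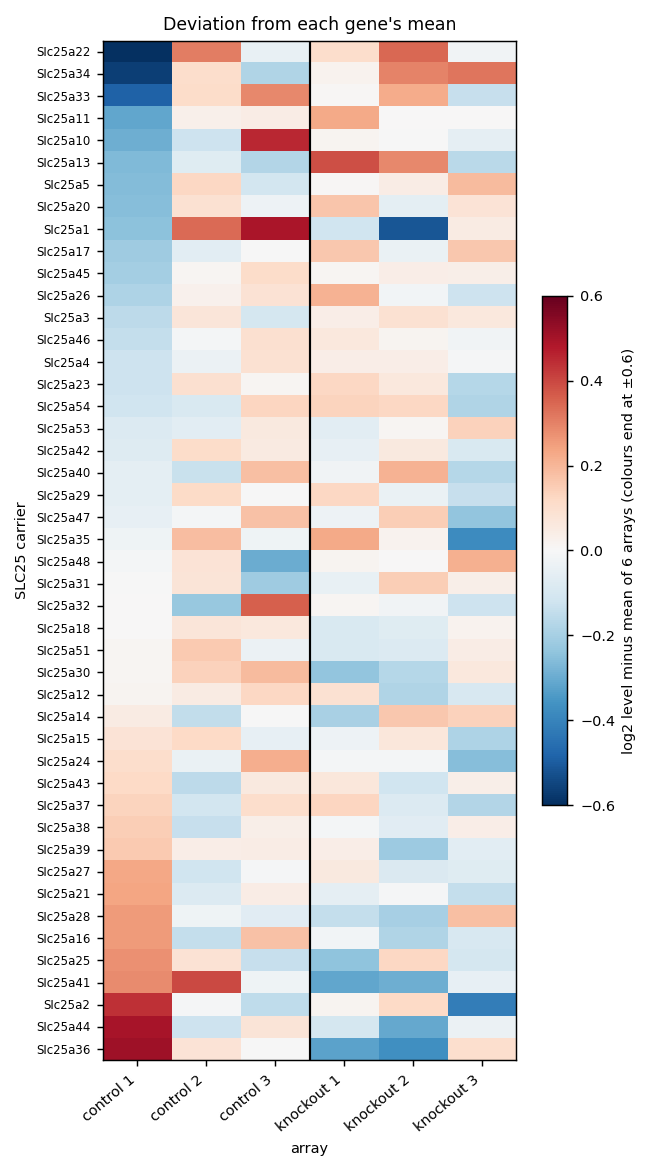
Deviation of each of the 46 SLC25 members (rows, sorted by control 1) from its own mean over the 6 arrays (columns), in log2 units with colours ending at ±0.6; a vertical line parts controls from knockouts. Control 1 is blue at the top and red at the bottom, being the lowest array for 15 members and the highest for 12.

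The promoters of Slc25a3, Slc25a4 and Slc25a20, carriers of the fuel and ATP route that were each lowest in control 1, are shown. They were chosen because their windows hold the motif described here. Among the 15 low members it was found in 1 other, Slc25a17. It was also found in Slc25a25 and Slc25a38, which were highest in control 1. Slc25a54, neither lowest nor highest in control 1, held it too. Only 36 of the 46 members had a window, and any low member without one was not searched. Each stretch runs 5′ to 3′ from 250 bases before the annotated start to 50 after it, from RefSeq on GRCm38.p6. Capitals mark the letters CCGGAAG, the core bound by the nuclear respiratory factor GABP.
Slc25a3 (chr10:91123918-91124217, minus strand): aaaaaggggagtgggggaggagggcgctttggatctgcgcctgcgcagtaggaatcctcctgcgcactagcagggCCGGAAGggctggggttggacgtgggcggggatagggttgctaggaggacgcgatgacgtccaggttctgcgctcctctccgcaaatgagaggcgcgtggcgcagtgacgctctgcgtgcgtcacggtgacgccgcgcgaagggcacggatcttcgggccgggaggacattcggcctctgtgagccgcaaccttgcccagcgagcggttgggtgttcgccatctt
Slc25a4 (chr8:46211013-46211312, minus strand): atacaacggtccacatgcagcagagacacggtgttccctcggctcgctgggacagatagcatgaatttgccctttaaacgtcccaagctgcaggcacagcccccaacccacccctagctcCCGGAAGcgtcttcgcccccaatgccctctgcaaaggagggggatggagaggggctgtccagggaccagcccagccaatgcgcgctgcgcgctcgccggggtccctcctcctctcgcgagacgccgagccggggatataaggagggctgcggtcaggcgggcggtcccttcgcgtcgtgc
Slc25a20 (chr9:108661886-108662185, plus strand): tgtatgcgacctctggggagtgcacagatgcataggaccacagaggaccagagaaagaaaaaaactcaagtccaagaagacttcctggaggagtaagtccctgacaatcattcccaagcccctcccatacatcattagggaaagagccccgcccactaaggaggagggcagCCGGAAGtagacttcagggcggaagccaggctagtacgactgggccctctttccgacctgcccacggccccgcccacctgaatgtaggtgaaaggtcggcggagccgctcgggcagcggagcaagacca
In these windows the motif begins 175, 130 and 79 bases before the start of Slc25a3, Slc25a4 and Slc25a20. The promoter table held 46 windows for 36 of the 46 members, as some genes have several starts. With both strands searched, CCGGAAG occurred in 7 of these 46 windows (15.2%) and in 8.86% of all 32851 windows of the same length. The estrogen-related receptor motif TNAAGGTCA occurred in 0 member windows and 1.28% of all windows. GCGCATG, part of the palindrome bound by NRF1, occurred in 2 member windows and 3.91% of all windows, and TATAAA in 2 and 13.6%. A match describes letters only, and the arrays measured no binding.

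Genes of related proteins with other names were examined beside the numbered family. The uncoupling protein Ucp3 of skeletal muscle, which has the same fold, was at 8.82, 10.43 and 10.16 in controls and 10.10, 10.46 and 10.35 in knockouts. Control 1 lay over 1 log2 unit below every other array, and the log2 fold change of 0.50 (−0.32 to 1.32; limma, adjusted p = 0.802) was 0.0099 without it. Ucp1, the uncoupling protein of brown fat, lay below the receptor-gene level at 5.29 to 5.74, with a log2 fold change of 0.0036. Mtch1 and Mtch2, outer membrane relatives of the carriers, had log2 fold changes of 0.20 and 0.0034 (0.10 and 0.023 without control 1). In all, 0 of the 4 measured genes passed, and their median of 0.10 was 0.016 without control 1. Ucp2, Mpc2 and Cpt1b had no probe set of their own and are not analysed here.

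Of 20 genes of other routes across the mitochondrial membranes 12 were higher, 0 passed and the median log2 fold change was 0.017, or −0.018 without control 1. Mpc1, a subunit of the pyruvate carrier, was at 12.17, 12.51 and 12.38 in controls and 12.31, 12.45 and 12.32 in knockouts (log2 fold change 0.0051; limma, adjusted p = 0.997), and its difference was −0.085 without control 1. Of 12 genes that bring carrier proteins into the inner membrane 7 were higher and 0 passed, with a median of 0.048, or 0.030 without control 1 and 0.0082 without control 2. Timm22, the channel of the carrier translocase, had a log2 fold change of 0.11 (limma, adjusted p = 0.916), which turned to −0.033 without control 1. Shuttle and phosphagen enzymes had 8 of 14 higher, 0 passing and a median of 0.013, or −0.069 without control 1 and −0.047 without knockout 1.

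Of 10 regulators of mitochondrial genes 6 were higher and 0 passed, with a median log2 fold change of 0.14, or 0.029 without control 1. That array was the lowest of 6 for 7 of the 10 regulators, with a mean log2 level of 7.93 against 8.20 to 8.32 on the other arrays. Ppargc1a, the coactivator PGC-1alpha, was at 10.23, 10.75 and 10.31 in controls and 10.81, 11.08 and 11.20 in knockouts. Its groups did not overlap, though control 2 and knockout 1 were close. The log2 fold change of 0.59 (1.51-fold, 0.23 to 0.96) did not pass (limma, adjusted p = 0.351), and it was 0.49 without control 1. Esrra, the receptor ERRalpha that PGC-1alpha coactivates, had a log2 fold change of 0.18 (limma, adjusted p = 0.769), or 0.11 without control 1.

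Complex I of the respiratory chain and the mitochondrial ribosome served as comparison groups. Complex I genes were taken by symbol alone (Ndufa, Ndufb, Ndufc, Ndufs or Ndufv with a number), Ndufa4 included. Among these 32 genes the median log2 fold change was 0.086, and 25 were higher. Among 71 mitochondrial ribosomal genes the median was 0.036, and 42 were higher, while 0 members of either group passed. Control 1 was the lowest array for 24 of the 32 complex I genes and the highest for 0, whereas it was the lowest for 15 and the highest for 12 of the 46 carriers. Without control 1 the complex I median was 0.00036, with 16 genes higher and 16 lower. Whether the carriers differ from these groups was not tested.

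**Figure D4:**
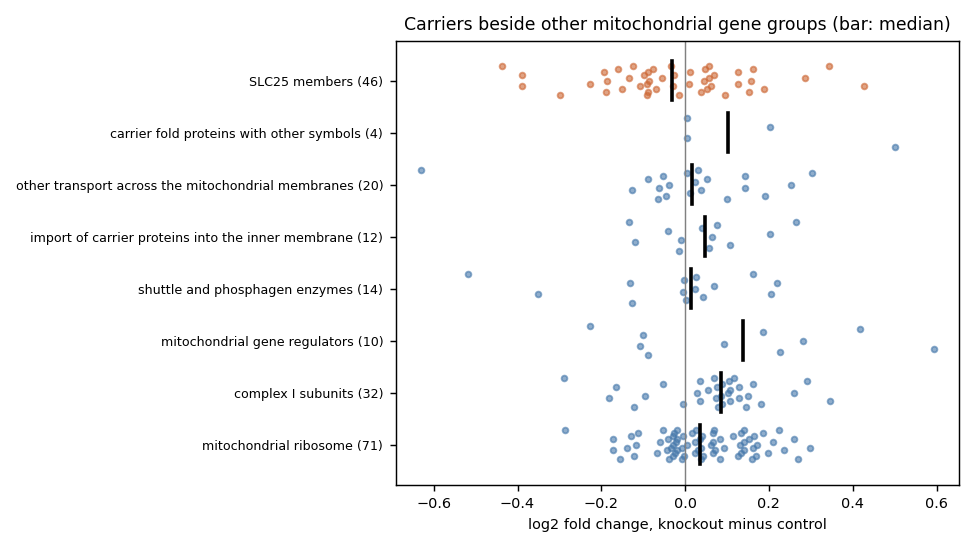
Log2 fold change, knockout minus control (horizontal axis), of the 46 SLC25 members (orange) and of 7 other mitochondrial gene groups (blue), with the number of genes in brackets and a black bar at the median. Medians run from −0.032 for the SLC25 members to 0.14 for the regulators, and 0 genes passed the test over all genes.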

How the data were processed

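The table that the authors deposited holds log2 summaries of 41345 probe sets on each of 6 arrays. The submitters' processing notes name RMA, oligo and limma without versions or order, and no genome build is given in the sources used here. RMA subtracts background, makes the arrays' distributions alike and summarises probes, which compresses differences of dim transcripts. Probe sets were named through GEO's platform annotation, and all 46 members were found by symbol in the mouse RefSeq gene table (GRCm38.p6). A gene with several probe sets took the one with the highest mean; each member had 1.

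Groups were tested in limma 3.58.1 under R 4.3.3 (lmFit and eBayes, group means only, two-sided, Benjamini-Hochberg over 22180 genes, threshold 0.05), tested on simulated data. No filter on dim genes was applied. The receptor-gene level decided no call. Named in full were members that passed or whose groups did not overlap (up to 12 by size of change), and 11 fixed members; others are marked as named after their values were seen. Members, lists, tests and the promoter motifs were chosen with earlier results of these data known. Alternatives were run at 9 other settings and without each array in turn. Scan dates were not used here. The number of arrays limits the precision. Plots used matplotlib 3.10.9 in Python 3.11.15.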

Additional observations from a re-analysis of the deposited data

How the results depend on the processing

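The count of 0 called members held under all 9 alternatives and without any 1 array (limma; 33 members were tested when genes were kept above the median level, and 36 when kept above that of receptor genes). Over all genes the count of 21 became 6 with every probe set tested, 53 above the median level, 45 above the receptor-gene level and 36 under a robust prior with intensity trend, and 2 to 11 without 1 array; fewer genes tested and fewer arrays are part of these settings, and the cause of the rest was not tested. Without 1 array the log2 fold change of Slc25a4 ran from −0.0042 to 0.10 and that of Slc25a33 from −0.17 to 0.22, so that both changed sign; Slc25a4 did so without control 1, and Slc25a33 without control 1 or knockout 2. The other 10 members named by rule kept their direction under the settings in which they were tested, as did Map3k7. Among all members, 45 of 46 kept their direction with array weights and 46 of 46 with median centring, quantile normalization, every probe set tested, the mean over probe sets, the trend and the block. With the replicate number as a block, 0 members and 17 genes passed. Whether the numbers pair the samples was not settled. Deviations of same-numbered mice correlated at 0.0791, 0.212 and −0.0721, and those of differently numbered mice at −0.217 to 0.138. Deviations were taken from means of 3 arrays, so these few values cannot decide it. Signal limits the 10 members below the receptor-gene level.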

Other observations

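Among genes of mitochondrial transport and shuttles, 2 others had non-overlapping groups with wider differences than any carrier; both were chosen after seeing their values. Micu3, a regulatory subunit of the calcium uniporter, was at 8.74, 8.16 and 8.34 in controls and 8.10, 7.39 and 7.86 in knockouts (log2 fold change −0.63, SE 0.20; limma, adjusted p = 0.453). Gpd2, the mitochondrial enzyme of the glycerol phosphate shuttle, was at 10.85, 10.69 and 11.02 in controls and 10.59, 10.01 and 10.42 in knockouts (log2 fold change −0.52, SE 0.16; limma, adjusted p = 0.440). In both genes every knockout value lay below every control value, as in 6.65% of all genes, and neither passed. Without control 1 the log2 fold changes were −0.47 and −0.52.

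Some carriers are neighbours in the RefSeq gene table of GRCm38.p6, with 0 protein-coding genes between them. Their log2 fold changes were −0.44 and 0.012 for Slc25a41 and Slc25a23, −0.014 and 0.16 for Slc25a43 and Slc25a5, 0.053 and −0.19 for Slc25a54 and Slc25a24, and −0.035 and −0.077 for Slc25a29 and Slc25a47. Slc25a41, Slc25a43 and Slc25a54 lay below the receptor-gene level, so their values are measured differences only. A probe set assigned to both Rangrf and Slc25a35 had a log2 fold change of −0.094, beside −0.088 for the probe set of Slc25a35 alone.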
